A study of Homo sapiens with 8 samples.

Results

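The promoters of 10 ribosomal protein genes were examined in 293T, an established human line of embryonic kidney origin with SV40 large T antigen. They are RPLP0, RPL13A, RPL3, RPL7A, RPL5 and RPL23A, whose products belong to the large (60S) subunit, and RPS3, RPS6, RPS27A and RPS14, whose products belong to the small (40S) subunit. The genes were chosen by name, with earlier results of these data known. Their peaks were chosen by position: every peak that overlapped the 5 kb on either side of the hg19 start sites was taken, in each of 8 peak lists. The windows held 63 peaks, and the promoter regions of the 10 genes were 10 of the 36845 regions that all lists form when overlapping peaks are merged. All 8 libraries were ATAC-seq libraries, in which a transposase inserts sequencing adapters into accessible DNA. Crosslinking and permeabilisation came before the transposase step in every sample, and the tagmented mixture was loaded on Q Sepharose, an anion exchanger. The flow-through (FT) was collected first and was followed by washes with 20, 100, 200, 300, 500, 700 and 1000 mM NaCl, called G20, G100, G200, G300, G500, G700 and G1000.

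Each fraction gave 1 library, so differences have no replicate to check them, and the tests set library against library rather than condition against condition. The series set out to follow accessibility through the fractionation. Within the lists the peaks of FT are named GL, and the name of the G200 peaks is G50_200, and it was not settled whether this list stands for the 200 mM wash by itself. The lists held between 8102 (G700) and 22807 (FT) peaks. Summit reads, which are not a measure of depth alone, differed as well. The regions found in every list held 125460 summit reads in FT and 58625 in G700. The reads were counted over 4078 ordinary regions, away from the chromosome ends and from the longest stretch of the chromosome without peaks. Of the summit reads in these ordinary regions FT held 17.1%, G20 16.0%, G100 11.1% and G200 12.5%. The share was 16.4% for G300, 9.40% for G500, 7.99% for G700 and 9.58% for G1000. The lowest background recovered from the peaks of a list gave another order. G200 (0.239) stood below G700 (0.248), and FT was highest (0.662). In bulk cells, fewer cells with an open promoter and fewer insertions per cell cannot be told apart.

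Ribosomal proteins assemble with ribosomal RNA into the 2 subunits that translate mRNA, and growing cells transcribe their genes at high, coordinated rates. Transcription of most of them starts at a cytosine within a pyrimidine tract. The mRNA then begins with a terminal oligopyrimidine (TOP) sequence, through which mTORC1 controls its translation. Known binders of such promoters are ETS family factors, SP1 and YY1, and several carry a TATA-like element.

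The sequences around the starts are given for 6 promoters that bracket the results. RPS14, RPS6 and RPS27A were called in every list, RPLP0 was missing from G200, and RPS3 and RPL7A were called in fewest lists. The sequences are from RefSeq, build GRCh38.p14, and run from 120 bases before to 30 bases after the listed start, 5′ to 3′ on the strand of the gene. Capitals mark the run of pyrimidines from the start and whole matches, on either strand, to motifs spelled out after the sequences. The RPS27A sequence belongs to the last of its 3 listed starts.

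RPS14 (chr5:150449710-150449859, minus strand): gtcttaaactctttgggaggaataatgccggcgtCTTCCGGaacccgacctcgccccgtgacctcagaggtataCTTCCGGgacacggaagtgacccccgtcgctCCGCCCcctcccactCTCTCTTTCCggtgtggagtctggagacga

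RPS6 (chr9:19380207-19380356, minus strand): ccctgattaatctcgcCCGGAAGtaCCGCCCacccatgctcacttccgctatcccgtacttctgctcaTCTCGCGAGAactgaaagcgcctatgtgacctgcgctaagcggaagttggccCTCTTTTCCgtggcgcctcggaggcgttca

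RPS27A (chr2:55232568-55232717, plus strand): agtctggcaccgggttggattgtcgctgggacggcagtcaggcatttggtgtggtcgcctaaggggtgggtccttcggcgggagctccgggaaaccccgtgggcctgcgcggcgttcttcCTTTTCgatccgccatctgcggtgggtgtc

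RPLP0 (chr12:120201082-120201231, minus strand): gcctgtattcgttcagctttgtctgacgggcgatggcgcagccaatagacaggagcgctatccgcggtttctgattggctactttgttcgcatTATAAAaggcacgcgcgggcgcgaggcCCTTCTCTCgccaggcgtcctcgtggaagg

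RPS3 (chr11:75399398-75399547, plus strand): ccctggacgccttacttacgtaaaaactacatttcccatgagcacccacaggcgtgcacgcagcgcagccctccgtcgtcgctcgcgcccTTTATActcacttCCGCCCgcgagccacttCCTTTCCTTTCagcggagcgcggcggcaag

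RPL7A (chr9:133348098-133348247, plus strand): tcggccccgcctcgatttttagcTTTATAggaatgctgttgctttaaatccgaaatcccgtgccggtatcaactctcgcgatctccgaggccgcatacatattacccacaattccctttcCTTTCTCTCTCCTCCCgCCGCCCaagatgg

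The promoter table held 8 of the 10 genes, in 10 entries of 300 bases, 250 before and 50 after the start. Entries for RPL5 and RPL23A were not analysed here. A cytosine start followed by at least 4 pyrimidines was found in 7 of the 8 genes. By entry this was 7 of their 10 entries, against 4.07% of all 35116 entries in the table. The tract ran for 16 bases in RPL7A, 11 in RPS3, 10 in RPS14, 9 in RPLP0 and RPS6, 7 in RPL13A and 6 at the last RPS27A start. RPL3 also began with a cytosine, but its tract had 4 bases in all. Of the 70 other cytosolic ribosomal protein genes listed, 56 were in the table, and 40 of these had the same kind of start (58.0% of their 69 entries). Those 70 genes were not placed in hg19, so their accessibility was not analysed here.

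The GC box GGGCGG, the SP1 motif, was present in 6 of the 8 genes (45.0% of all entries, and 32 of the 56 other ribosomal protein genes). CCGGAAG, an ETS core with its flank, was present in 5 of the 8 (10.3% of all entries, and 17 of the 56). RPS14 held it at both −86 to −80 and −46 to −40. RPS27A held it only at −191 to −185 from the first of its listed starts, and not in the entry of the last start, shown above. RPL3 held it at −57 to −51, directly before a GC box at −50 to −45, with no shared base. RPS6 held it at −104 to −98, and it alone held the palindrome CTCGCGAGA, on both strands between −52 and −43 (0.686% of all entries, and 5 of the 56). AAGATGGC, the YY1 motif, lay just downstream of the start in RPL13A (20 to 27) and RPS3 (28 to 35), and it was present in 2.89% of all entries and 5 of the 56. TATAAA was found in 4 of the 8 (11.5% of all entries, and 1 of the 56). In RPLP0 it lay on the gene's own strand at −27 to −22, and in RPS3, RPL3 and RPL7A on the opposite strand. A gene counts if any of its entries holds the motif, while the percentages are of entries. Of the 10 entries of the 8 genes, 6 held GGGCGG, 5 CCGGAAG, 4 TATAAA, 2 AAGATGGC and 1 CTCGCGAGA. A match is a description of the letters and not a measured binding site. Positions count the start as 1, and the base before it as −1.

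**Figure D1:**
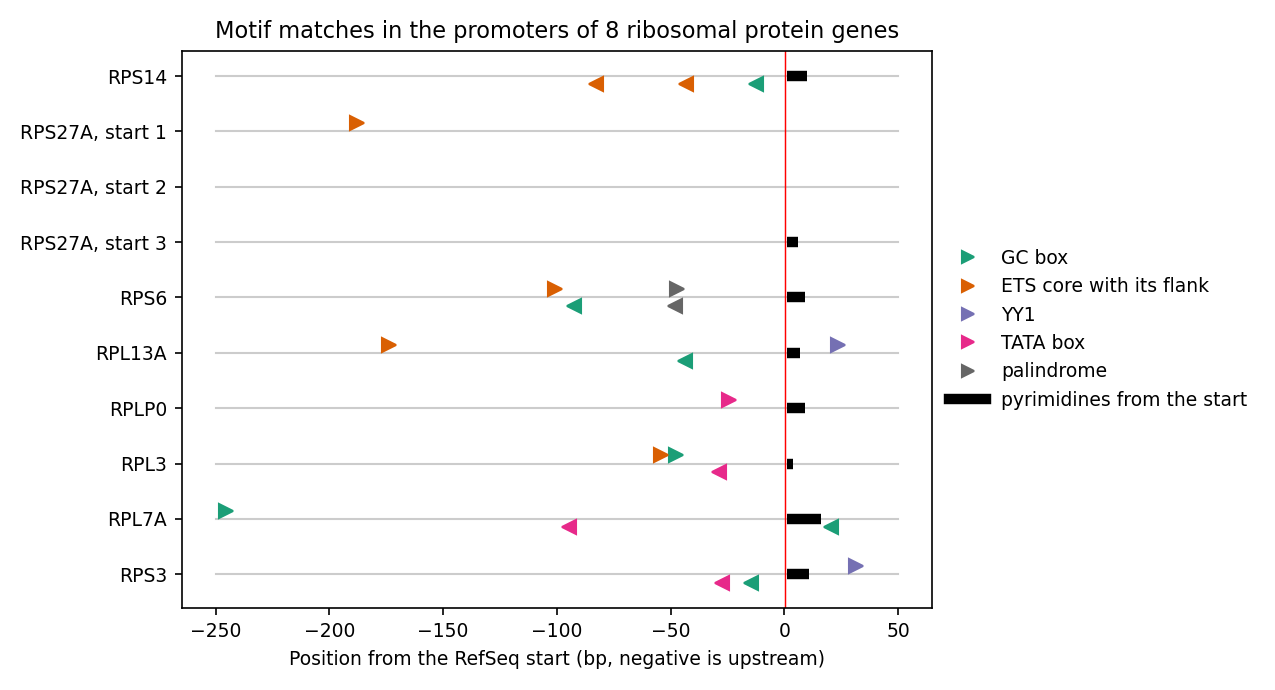
Positions of motif matches in the 10 RefSeq promoter entries of 8 genes, by distance from the listed start in bp. Triangles pointing right are matches on the strand of the gene and those pointing left on the other strand, and black bars are the pyrimidines that run from the start, the longest in RPL7A (16 bases).

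Every gene had a peak in at least 1 list, and 4 of the 10, RPS6, RPS14, RPS27A and RPL23A, had one in all 8 lists. Of all merged regions, of any kind, 11.5% were called in all 8 lists. The windows held a peak for 10 of the 10 genes in FT (61.6% of merged regions were called there), 9 in G20 (52.5%), 8 in G100 (35.8%) and 9 in G200 (43.2%). In G300 they held one for 8 genes (53.3%), in G500 for 7 (28.1%), in G700 for 4 (21.9%) and in G1000 for 7 (27.7%). The count was thus lowest in G700, the list with the fewest peaks and summit reads. With all lists at the length of the shortest, 8102 peaks, G700 held 4 genes, and the other lists held 5 to 7. The share of all merged regions called at that length was not analysed here. RPL13A and RPL5 were called in 7 lists, RPLP0 in 6, RPL3 in 5, and RPL7A and RPS3 in 2 lists at the promoter. RPL3, whose product lies at the peptidyl transferase centre, was called in the 5 libraries from FT to G300 and missed in the 3 libraries of higher salt. Among the regions called in those 5 lists, 21.1% were missing from G500, 31.2% from G700 and 20.8% from G1000.

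Of the 63 peaks, 61 lay in the promoter regions and had their summits no farther than 570 bp from the start. The other 2 were in the RPL7A window: an FT peak with its summit at −1284 bp (chr9:136213575-136214015) and a G20 peak with its summit at 3864 bp (chr9:136218877-136219184). The FT peak is the reason why RPL7A counts in FT although its promoter was not called there. In the RefSeq gene table RPL7A is flanked by MED22, a Mediator subunit gene, upstream and by SURF1, a gene for cytochrome oxidase assembly, downstream.

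The promoter peaks stood at different distances from the start, and 7 of the 10 genes kept their summits on 1 side of it. Summits were upstream of the start in 38 of the 61 peaks, and 43 of the 61 peaks covered the start itself. All summits of RPS14, RPS6, RPL13A, RPLP0 and RPL3 were upstream, in 34 of 34 peaks. All 16 of RPS27A and RPL23A were downstream. RPL5 had 5 summits downstream and 2 upstream, all within 160 bp of the start, and RPS3 and RPL7A each had 1 on either side.

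**Figure D2:**
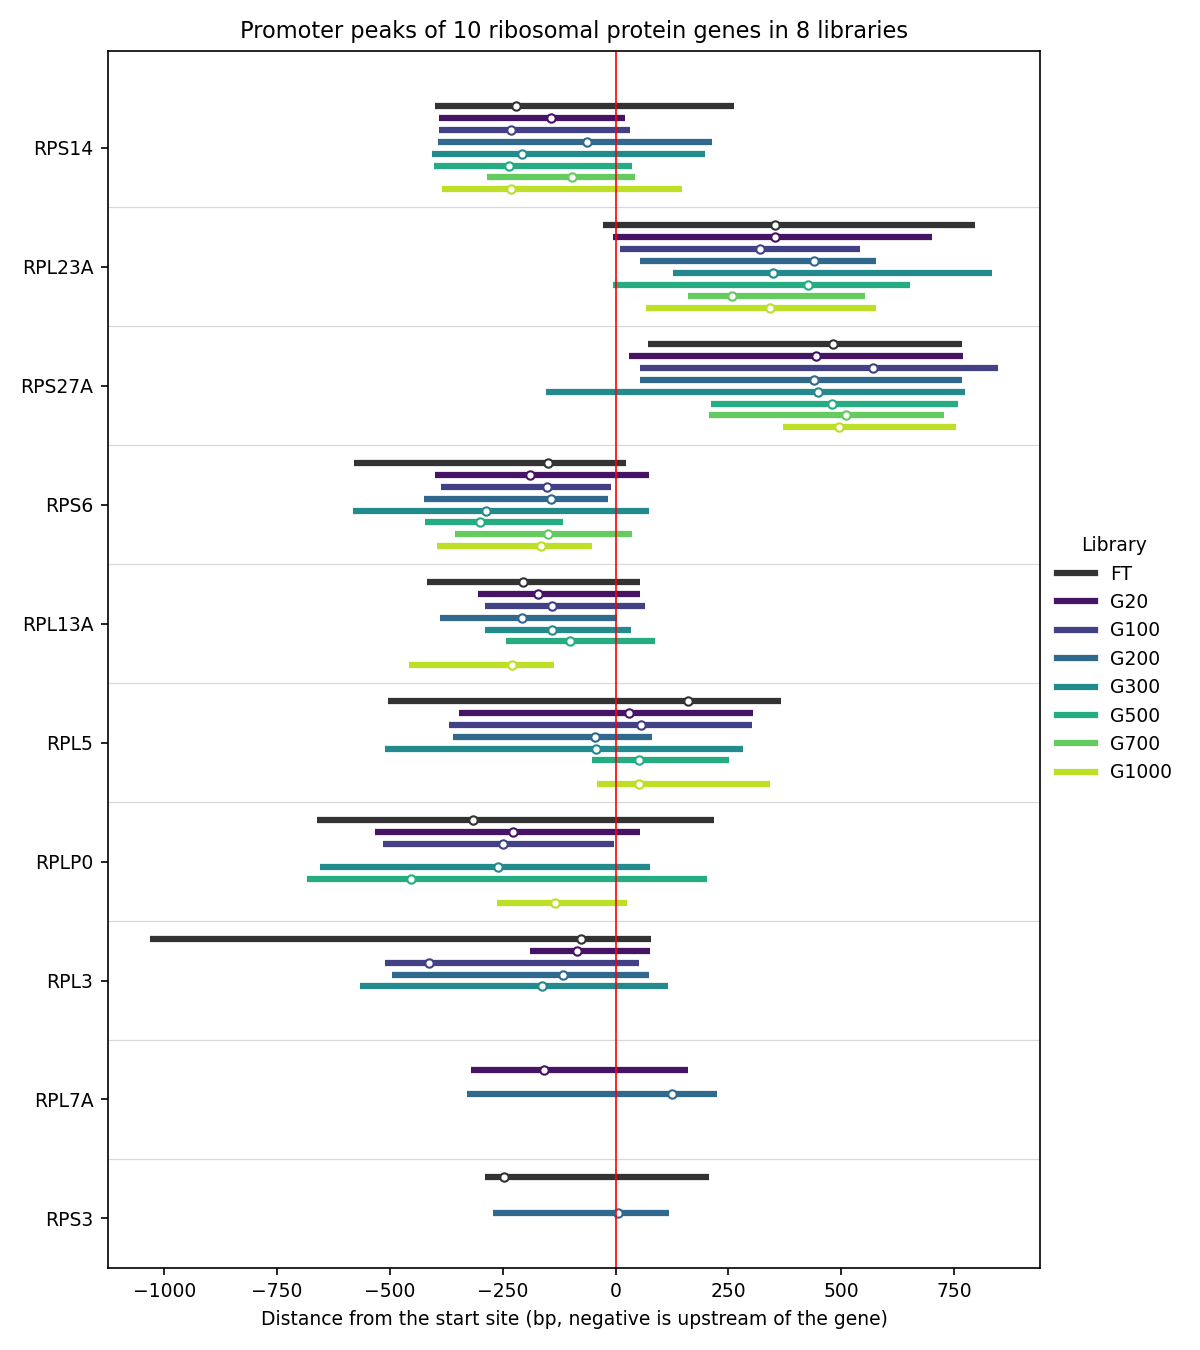
Extent of each promoter peak (bars) and its summit (open circles) by distance from the hg19 start in bp, oriented along the gene, with 1 row for each library from FT (top) to G1000 (bottom). The summits of RPS14 sit between −236 and −63 bp, and those of RPS27A between 439 and 570 bp, in all 8 libraries.

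RPS14, whose reduced dosage contributes to the anaemia of a myelodysplastic syndrome with a deletion on chromosome 5, had the best ranked peaks of the 10 in 6 lists. Its region was chr5:149829057-149829726 around the start at 149829319 on the minus strand. FT had 30 reads, G20 34, G100 22, G200 28, G300 43, G500 21, G700 14 and G1000 15. Reads are whole-number pileups recovered from the deposited fold and p-value of each peak, and with paired reads they may be fragments. Here and below they are not adjusted for depth. G300 was highest and G700 and G1000 were lowest. The fold enrichment, the authors' value, ran from 7.43 in G1000 to 12.7 in G300. By the authors' −log10 q it led the 10 genes in each wash except G1000, and it was in the top 1.94% of all G300 peaks. In G1000 it ranked lower, at 22.2% of the list. The peaks shared 306 bp, from −285 to 20 bp around the start, and this stretch holds both ETS matches, the GC box and the whole pyrimidine tract, if the RefSeq start of GRCh38 is the hg19 start used here.

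RPS6, the substrate of the S6 kinases downstream of mTORC1, had its summit upstream of the start in each library. Its region was chr9:19380160-19380816 around the start at 19380235 on the minus strand. FT had 27 reads, G20 17, G100 13, G200 19, G300 28, G500 15, G700 10 and G1000 10. FT and G300 had the most reads and the 2 highest washes the fewest. Summits lay between −301 and −143 bp, and 4 of the 8 peaks covered the start. Its rank ran from 8.41% of the list in G300 to 58.2% in G1000.

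RPS27A, whose product is made as a fusion with ubiquitin, had its peaks downstream of the start. The region was chr2:55458885-55459886 and the start 55459039 on the plus strand. FT had 27 reads, G20 25, G100 23, G200 16, G300 27, G500 16, G700 11 and G1000 21. FT and G300 had the most reads and G700 the fewest, and G1000 stood above G500 and G700. All summits lay 439 to 570 bp from the start, and 1 of the 8 peaks, that of G300, reached the start. RefSeq lists 3 starts for the gene in GRCh38. The other two lie 775 and 785 bp after the first, and starts of CLHC1 lie 390 and 660 bp after it on the opposite strand. The stretch shared by all 8 peaks ran from 370 to 728 bp, so it would end just before the later RPS27A starts if the hg19 start used here is the first of them. That was not checked, because the builds were not aligned here.

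RPL23A, part of the docking platform at the exit of the ribosomal tunnel, also had its peaks downstream of the start. Its region was chr17:27046383-27047244 and the start 27046411 on the plus strand. FT had 35 reads, G20 28, G100 17, G200 27, G300 31, G500 20, G700 14 and G1000 17. FT was highest and G700 lowest, with G100 and G1000 next to it. Whether this start is the main start of the gene was not checked, so the offsets are from the listed position only. Summits lay 257 to 439 bp downstream, and 3 of the 8 peaks covered the start.

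The summits of these 4 promoters moved less between libraries than those of most shared regions. The distance between the outermost summits was 131 bp at RPS27A, 158 bp at RPS6, 173 bp at RPS14 and 182 bp at RPL23A, against a median of 230 bp over 4199 regions (quartiles 162 and 337.5 bp). The highest of the 4 values stood at the 32.6th percentile of those regions.

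**Figure D3:**
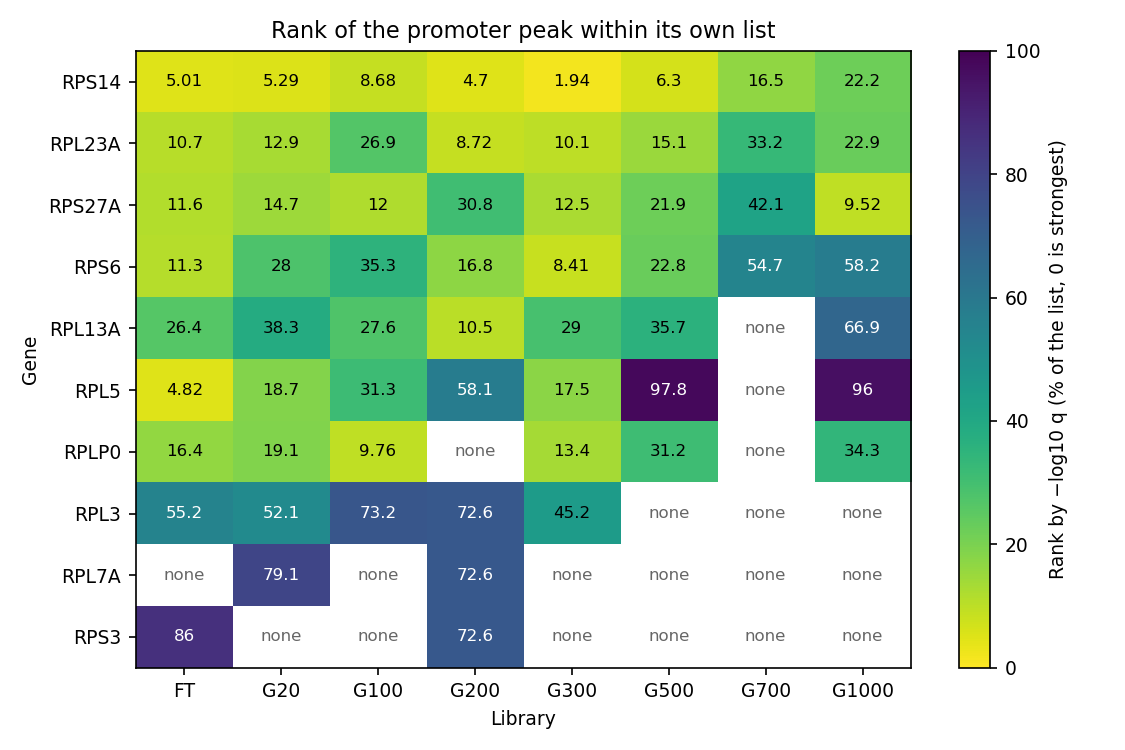
Rank of each promoter peak within its own list, by −log10 q, in percent of the list (0 is strongest), with genes in rows and libraries in columns. RPS14 lies in the top 22.2% of every list, RPL5 runs from 4.82% in FT to 97.8% in G500, and "none" marks a list without a promoter peak.

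The called promoter peaks of the 10 genes were mostly stronger than the typical peak of their list. A gene without a promoter peak in a list drops out of its median. The medians thus rest on 9 genes in FT, G20 and G200, 8 in G100 and G300, 7 in G500 and G1000, and 4 in G700. The median rank by −log10 q was 11.6% of the list in FT and 13.0% in G300. It was 19.1% for G20, 27.3% for G100, 30.8% for G200, 22.8% for G500, 37.6% for G700 and 34.3% for G1000. Ranked by fold instead, it was 26.6% in FT, 28.2% in G20, 28.1% in G100 and 37.6% in G200. By fold G300 had 17.8%, G500 24.8%, G700 40.8% and G1000 38.5%. The median −log10 q of the called promoter peaks was 15.1 in FT and 15.2 in G300, against 5.89 and 5.79 for all peaks of those lists. In G700 it was 6.17, against 5.06 for the list. The median width was 696 bp in FT and 695 bp in G300, against 527 and 488 bp for all peaks. In G500, G700 and G1000 it was 439, 393.5 and 385 bp, against 450, 418 and 443 bp for the lists. Strength and width are values within each list, so they do not order the libraries.

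No library stood apart by the test at the 4 promoters called in all lists. Each library was set against the other 7 with an exact binomial test, with expected shares from the 4078 ordinary regions, and adjusted over all 33592 tests. The ratio of reads to those expected ran from 0.732 (RPS6 in G20 and in G1000) to 1.37 (RPS27A in G1000). None of the 32 tests at these 4 promoters passed after adjustment, and 0 of the 32 had an unadjusted p under 0.05. Over all regions 0.560% of the tests passed, and 5.01% had an unadjusted p under 0.05. With each library scaled to its background, the lowest background recovered from its peaks, the ratios ran from 0.587 (RPS14 in FT) to 1.89 (RPL23A in G200). That scaling moved the G200 ratios by over 1.5 times, to 1.78 for RPS14, 1.80 for RPS6 and 1.21 for RPS27A, against 1.10, 1.11 and 0.749 as first scaled. The intervals were wide. RPS14 had 1.34 times the expected reads in G300 (95% Clopper-Pearson interval 0.931 to 1.88). In G1000 it had 0.738 times (0.405 to 1.25). Such intervals, here and below, cover only the error of counting. RPS27A had 1.37 times in G1000 (0.822 to 2.17).

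The low-salt side (FT, G20 and G100) and the high-salt side (G500, G700 and G1000) showed no difference that passed the test at these 4 promoters. Only regions called in all lists entered it, so a promoter lost on a side could not show there. RPL3, missed in G500, G700 and G1000, had no side test. RPS14 had 86 low-side reads and 50 high-side reads, 1.05 times the expected ratio (0.733 to 1.52). RPS6 had 57 and 35 (0.994 times, 0.642 to 1.56), RPS27A 75 and 48 (0.954 times, 0.655 to 1.40) and RPL23A 80 and 51 (0.958 times, 0.666 to 1.39). The adjusted p of the exact binomial test over 4199 regions was 1.00 for each. The low side passed as higher in 0.262% of those regions, and the high side in 0.0714%.

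RPL5 had both the highest and the lowest ratio of reads to expectation among the 8 promoters called in at least 5 lists, 1.88 in FT and 0.463 in G500. With background scaling RPL13A in G200 was higher, at 2.49, than RPL5 in FT, at 1.32. The product of RPL5 carries a small ribosomal RNA into the large subunit and binds MDM2 when assembly fails. The region was chr1:93297070-93297948 and the start 93297582 on the plus strand. FT had 36 reads, G20 20, G100 16, G200 10, G300 24, G500 6 and G1000 8, and G700 had no peak. FT was highest, and G500 and G1000 were below each of the other calling lists. The rank moved the same way, with 4.82% of the list in FT, where it was the strongest of the 10, against 97.8% in G500 and 96.0% in G1000.

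Among regions called in at least 5 lists, a wider set added after the data were seen, FT had 1.88 times the reads expected from the other calling lists at RPL5 (1.23 to 2.81). The exact binomial test gave p = 0.00331 unadjusted and 0.507 adjusted over 73806 tests, so it did not pass; 0.259% of those tests did. It was the only one of the 57 tests at 8 promoters with an unadjusted p under 0.05, beside 3.42% of all tests. Background scaling gave 1.32 in FT and 0.938 in G200, against 0.580 in G200 as first scaled. For the sides, RPL5 had 72 reads in the 3 low-side lists and 14 in G500 and G1000, 2.21 times the expected ratio (1.24 to 4.24). The p of the exact binomial test was 0.00511 unadjusted and 0.958 adjusted over 7871 regions, of which the low side passed as higher in 0.152% and the high side in 0.0381%. Without FT the ratio was 1.80. RPL5 was picked among 7 promoters with such a test after its values were seen.

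The counting model was only roughly met. Over the ordinary regions the squared deviation of the reads from expectation was 2.49 times that of counting in G200 and 1.61 times in FT, against 0.768 to 0.968 times in the other 6 libraries. The intervals for FT and G200 are therefore too narrow.

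**Figure D4:**
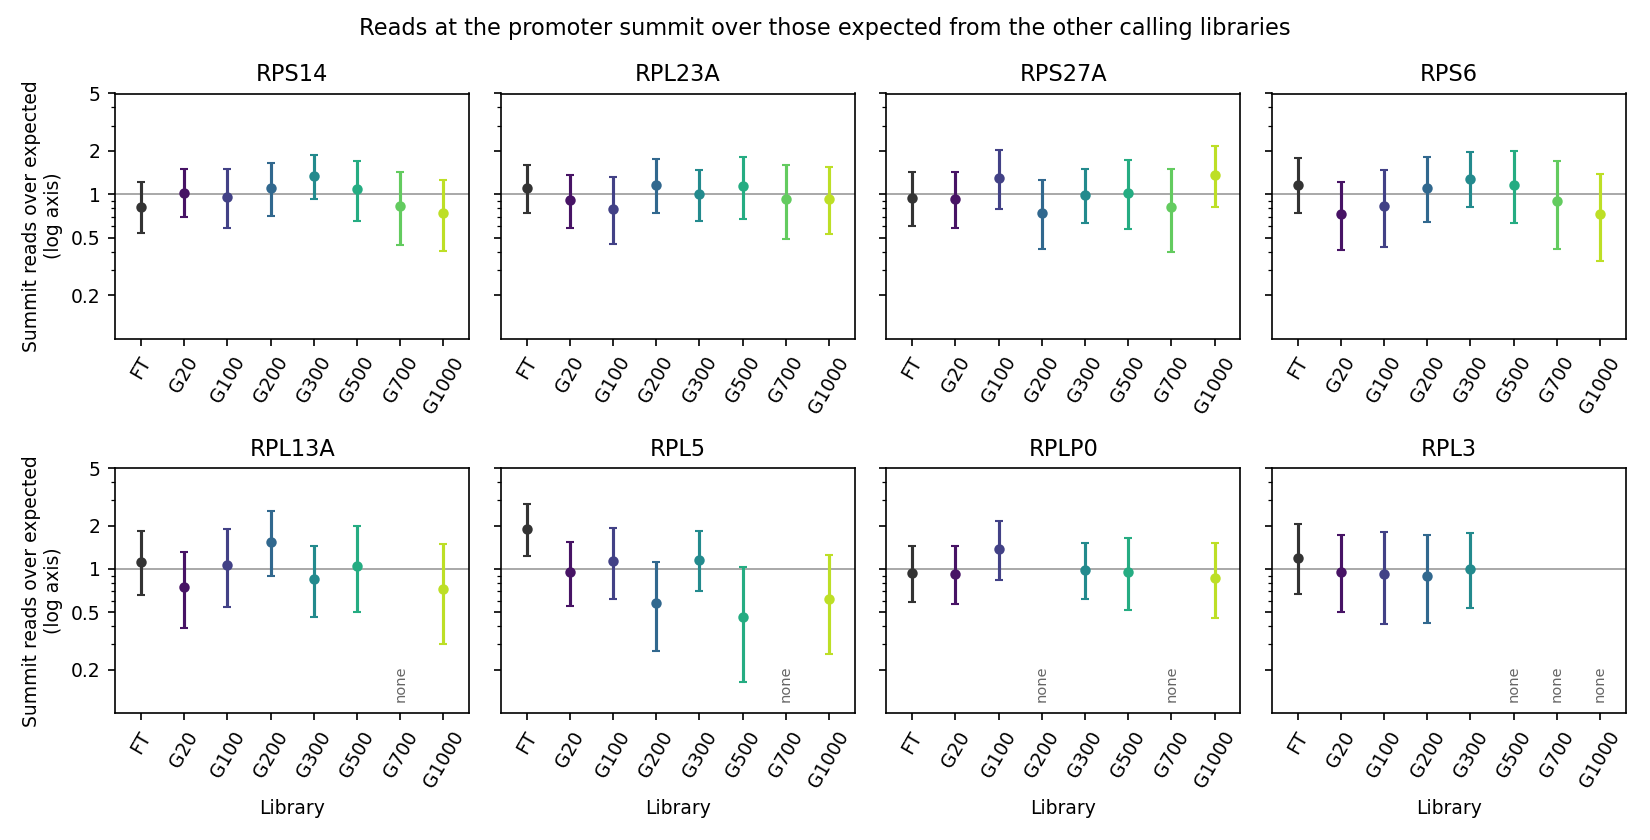
Summit reads over those expected from the other calling libraries (log axis) for the 8 promoters called in at least 5 lists, with 95% Clopper-Pearson intervals that cover counting error only. The interval of RPL5 in FT (1.23 to 2.81) is the only one that does not include 1, and "none" marks a library without a peak.

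RPL13A, a subunit that is also released to silence inflammatory mRNAs, had its summit upstream of the start in all 7 lists that called it. The region was chr19:49990354-49990898 and the start 49990811 on the plus strand. FT had 21 reads, G20 14, G100 13, G200 20, G300 16, G500 11 and G1000 8. G200 had the highest ratio to expectation, 1.54 (0.893 to 2.53), and the peak had its best rank there, at 10.5% of the list. With each library scaled to its background that ratio was 2.49, with an adjusted p of 0.0631 in the exact binomial test over regions of at least 5 lists, against 1.00 as first scaled. Summits lay between −230 and −100 bp, and 6 of the 7 peaks covered the start. The low side had 48 reads and the high side 19, 1.09 times the expected ratio (0.626 to 1.96).

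RPLP0, the base of the stalk that recruits translation factors, was called in FT, G20, G100, G300, G500 and G1000. The region was chr12:120638692-120639593 and the start 120638910 on the minus strand. FT had 27 reads, G20 25, G100 24, G300 27, G500 15 and G1000 14. FT, G20, G100 and G300 had 24 reads or more, and G500 and G1000 had 15 or fewer. Their ratios to expectation lay between 0.867 in G1000 and 1.37 in G100. Summits lay between −453 and −135 bp, and in GRCh38 the lncRNA gene PXN-AS1 starts 180 bp upstream on the opposite strand.

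RPLP0 had no peak in G200, although 20.7 reads were expected there from the 6 lists that called it. A call needed about 7 reads at the local background of those lists, scaled to G200, so the summit held at most 0.290 times the expected reads if that background applies. The nearest G200 peak lay 83.9 kb away (chr12:120554191-120555052). With each library scaled to its background 12.8 reads were expected, and the limit was 0.469 times. Of the 5626 regions called in the same 6 lists, 6.65% were missing from G200. Of the 2064 of them with at least as many reads as RPLP0, 1.36% were missing from G200, which is 28 regions. Reads at places without a peak were not analysed here, so the gap itself was not tested. The larger spread beyond counting in G200 (2.49 times) stands beside this result, and its part in it was not tested.

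Most other missing calls lay closer to the number a call needed. Over the 10 genes, 19 of the 80 pairs of gene and list had no promoter peak. Among all merged regions, of any kind, the share with a call ran from 21.9% in G700 to 61.6% in FT. In 13 of the 19 pairs the reads expected from the calling lists reached the number a call needed, and in 6 they did not. With background scaling these were 16 and 3 pairs, and the widest gap was then RPL7A in FT, with 22.1 expected and 12 needed, against 13.2 expected as first scaled. For RPL3, 9.14 reads were expected in G500 and 8 needed, 7.76 expected in G700 and 7 needed, and 9.31 expected in G1000 and 8 needed. For RPLP0 in G700 13.3 were expected and 8 needed, for RPL5 in G700 10.4 and 7, and for RPL13A in G700 8.94 and 6. The lower limit of the expected reads reached the need in these pairs (11.1, 8.63 and 7.30) and for RPLP0 in G200 (17.3). In the pairs of RPL3, RPS3 and RPL7A it did not, as with RPL3 in G500 (7.14) and RPL7A in FT (8.28). With background scaling it also did for RPL7A in FT (13.8) and in G300 (10.4). Expected reads come only from lists with a call, so they may be too high. Of the regions called in the other 7 lists, 19.2% were missing from G700.

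**Figure D5:**
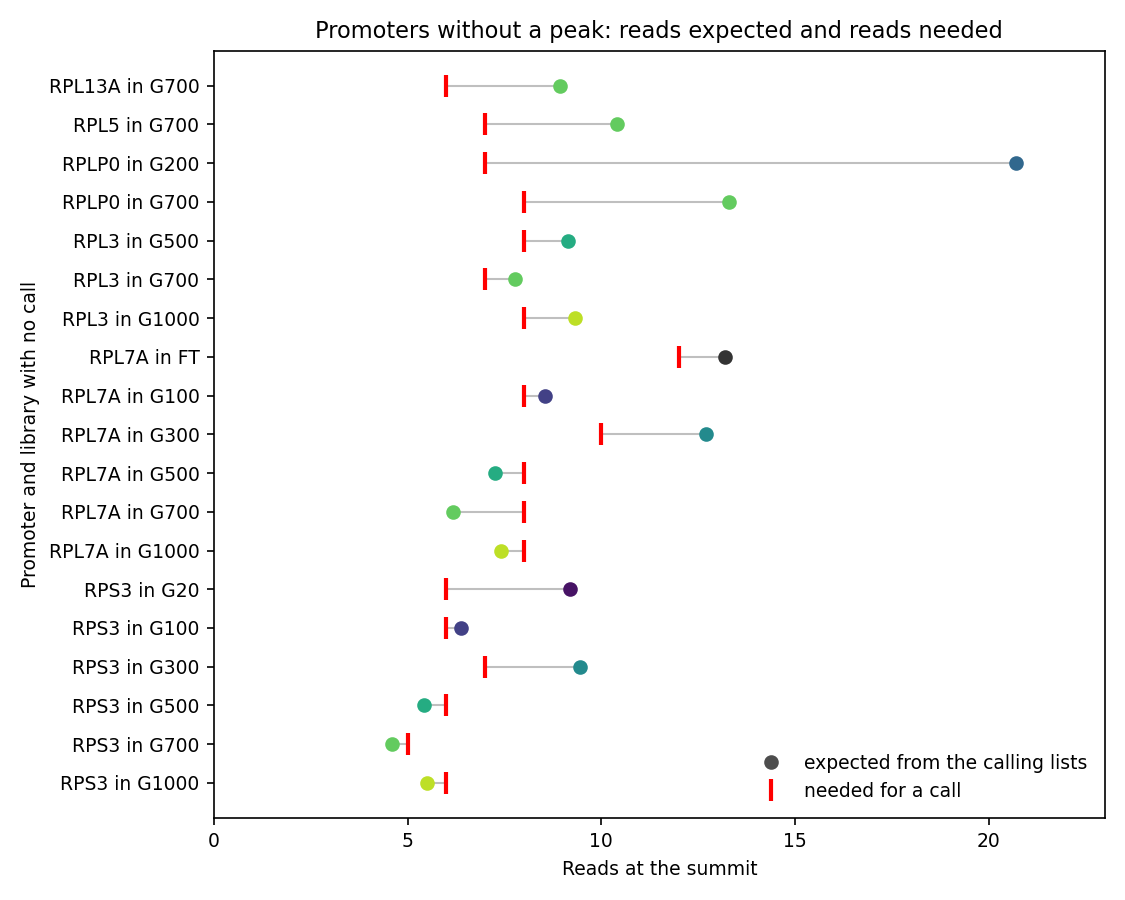
Reads expected at the summit from the calling lists (points, coloured by library as in the other plots) and reads needed for a call (red bars), for the 19 pairs of promoter and library without a peak. As first scaled, RPLP0 in G200 has the widest gap, with 20.7 expected and 7 needed, and 6 pairs of RPL7A and RPS3 fall short of the need.

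RPL3 was among the weaker promoters. Its region was chr22:39715555-39716701 around the start at 39715670 on the minus strand, and the FT peak was its widest, with 1110 bp. FT had 19 reads, G20 15, G100 10, G200 11 and G300 16. Their ratios to expectation, between 0.891 in G200 and 1.20 in FT, had intervals that include 1. Its fold enrichment was 4.17 to 5.25, below the median of all peaks in each of the 5 lists, which was 5.35 in FT and 5.57 to 5.79 in the other 4.

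RPS3 and RPL7A were at the edge of calling. RPS3, which sits at the mRNA entry of the small subunit, had 10 reads in FT and 7 in G200, with −log10 q of 2.91 and 3.58. Its region was chr11:75110240-75110736 around the start at 75110530 on the plus strand. RPL7A, a large-subunit protein whose gene lies in the surfeit cluster, had 11 reads in G20 and 11 in G200, in chr9:136214739-136215293 around the start at 136215069 on the plus strand. These peaks ranked at 72.6% to 86.0% of their lists. In G500, G700 and G1000 between 4.59 and 7.40 reads were expected at these 2 promoters and 5 to 8 were needed, and in none of these 6 pairs did the expectation reach the need. With background scaling it did in the 3 pairs of RPL7A, with 8.26 to 9.70 expected and 8 needed. RPS3 in G20 (9.20 expected, 6 needed) and RPL7A in G300 (12.7 expected, 10 needed) had more room, but these expectations rest on 2 lists each.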

How the data were processed

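The data are 8 ATAC-seq peak lists of 293T cells, 1 per fraction. Per the submitters' processing notes, the tools were Bowtie2 2.2.6 for reads, MACS2 2.2.1 and HOMER, with hg19 and mm10 as builds. For read filters and calling settings nothing is stated in the labels. Each list deposited by the authors holds peak positions (in hg19, counted from 1 here), a whole-number score, the fold (ratio) of the summit over its background, and −log10 p and −log10 q values.

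The 10 genes and their windows, the other ribosomal protein genes and the motifs were chosen with earlier results of these data known. All 10 genes are named, by rule. Peaks sharing at least 1 bp were merged. Pileups were solved from fold and −log10 p (up to 3000, match within 0.001), and a single solution was found for 98.9% to 99.8% of the peaks of a list and for all 63 peaks here. Regions of all 8 lists with solved pileups (4199, of which 4078 ordinary) gave the expected shares. Ordinary means a placed chromosome, over 20 kb from its ends and over 1 Mb from its longest peak-free stretch. Tests were exact binomial tests (two-sided, doubled tail) with Benjamini-Hochberg adjustment at 0.05. They were tried on simulated counts with counting error only, so the larger spread of FT and G200 was not covered. A call's need was the smallest pileup that reaches the lowest −log10 p of a list at the genes' background, scaled by the lists' lowest background. The background for counts of calls was all merged regions, since no hg19 annotation was used here. For the same reason the planned counts over other ribosomal protein genes were not made. Strands are from the RefSeq promoter table, for RPL5 and RPL23A from general knowledge. Python 3.11.15, scipy 1.17.1 and pandas 2.3.3 were used.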

Additional observations from a re-analysis of the deposited data

How the results depend on the processing

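No paired analysis was possible because each fraction has 1 library, and no replicate could be left out. The number of genes with a peak in all lists, and that in each list, stayed within 1.5 times under windows of 1 kb and 500 bp, with the summit inside the window and with −log10 q of at least 2. With −log10 q of at least 5, G200 held 5 genes and G1000 held 4. With all lists at the length of the shortest, FT, G20, G100 and G300 held 7 genes each. G500 and G1000 then held 6, G200 5 and G700 4. Shares of all merged regions at these cuts of the lists were not analysed here. None of the tests at promoters of all lists passed under any setting tried, and their adjusted p in the exact binomial test was 0.102 or higher. At promoters of at least 5 lists it was 0.0631 or higher, the lowest for RPL13A in G200 with background scaling.

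Some ratios changed direction, none of them called and the farthest from 1 being RPS27A in G200 (0.749 as reported). With background scaling these were, in FT, RPL23A 0.787, RPS6 0.835, RPL13A 0.791 and RPL3 0.814. In G20 they were RPL23A 1.05, RPS27A 1.07, RPL5 1.09, RPLP0 1.14 and RPL3 1.10. In G200 they were RPS27A 1.21 and RPL3 1.45 (0.891 as reported), in G300 RPLP0 1.02 and RPL3 0.961, and in G500 RPLP0 1.01. RPL23A in G300 was 1.01 with scaling to all shared regions, 1.03 without G200 and 1.02 without FT. RPS27A in G500 was 0.990 without G200, and RPS14 in G20 was 0.994 without FT. The low over high ratio was 1.01 for RPL23A and 1.02 for RPS6 without G100, and 0.996 for RPL13A without FT. The causes were not tested. Over settings, the adjusted p of RPL5 in FT was 0.507 to 1.00, and that of its sides 0.599 to 1.00 (exact binomial test). Depth limits every ratio: the 10 promoters had 6 to 43 summit reads in a library.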
